A study of Mus musculus with 2 samples.

Results

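Ms4a1-positive B cells made up 303 of the 5302 cells (5.71%) in droplet single-cell RNA libraries of YFP+CD11b- cells sorted from mouse hindlimb muscle. They were selected by their own transcripts, counted as unique molecular identifiers (UMIs), where 1 UMI stands for 1 captured RNA molecule. A barcode needed 500 or more detected genes, with no more than 10% of its UMIs mitochondrial. It then needed at least 2 UMIs of Ms4a1 (CD20, a membrane protein of B cells from the late precursor stage onward) and at least 1 UMI among Fcmr, Fcer2a, Fcrl1 and Bank1. It could hold no UMI of the T cell receptor genes Cd3d, Cd3e and Cd3g, no UMI of the germinal centre gene Rgs13, and at most 2 UMIs of the early B cell genes Igll1, Vpreb1 and Dntt. The selected cells numbered 32 of 2636 at day 28 and 271 of 2666 at day 0.

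The day 28 library came from mice whose hindlimb had been made ischemic by surgery 28 days before, and the day 0 library from mice without surgery. All mice carried Fsp1-Cre and the R26R-EYFP reporter. In this cross the promoter of S100a4 (Fsp1) drives the recombinase, so that a cell and its descendants keep the yellow fluorescent label after the promoter has once been active. Both libraries were restricted to labelled cells without surface CD11b, an integrin of myeloid cells. There was 1 library per group, the number of animals pooled in each is not given in the sources used here, and no difference below has a replicate check. Intervals cover counting error alone.

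Mature B lymphocytes carry a membrane antibody whose signal passes through the paired proteins Cd79a and Cd79b and is tuned by other surface receptors such as Cd22. They take up antigen through this receptor and show its peptides to helper T cells on major histocompatibility complex (MHC) class II molecules, whose genes are switched on by the coactivator Ciita. Follicular B cells recirculate through blood and lymphoid follicles and carry CD23 (Fcer2a), while marginal zone and B-1 cells are innate-like subsets with little CD23.

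MHC class II genes were among the most abundant genes with a lower level at day 28, so the promoters of 5 of them are shown here from RefSeq (build GRCm38.p6), 130 bases up to the transcription start and 5′ to 3′ on the gene's strand. Capitals mark TGATTGG, the core of the Y box, the class II promoter element bound by the factor NF-Y. The intervals are chr17:34287824-34287953 on the minus strand for H2-Aa and, on the plus strand, chr17:34305737-34305866 for H2-Eb1, chr17:34145119-34145248 for H2-DMb2, chr17:34092249-34092378 for H2-Oa and chr17:34238775-34238904 for H2-Ob.
H2-Aa: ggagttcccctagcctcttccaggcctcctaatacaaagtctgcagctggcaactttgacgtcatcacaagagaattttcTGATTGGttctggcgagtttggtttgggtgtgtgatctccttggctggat
H2-Eb1: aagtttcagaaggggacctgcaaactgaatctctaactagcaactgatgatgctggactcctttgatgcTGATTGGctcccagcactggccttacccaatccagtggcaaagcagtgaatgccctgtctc
H2-DMb2: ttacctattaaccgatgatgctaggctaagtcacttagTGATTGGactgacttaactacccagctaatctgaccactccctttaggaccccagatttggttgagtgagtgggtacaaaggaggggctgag
H2-Oa: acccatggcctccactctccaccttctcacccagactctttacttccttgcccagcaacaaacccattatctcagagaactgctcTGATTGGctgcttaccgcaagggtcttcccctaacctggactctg
H2-Ob: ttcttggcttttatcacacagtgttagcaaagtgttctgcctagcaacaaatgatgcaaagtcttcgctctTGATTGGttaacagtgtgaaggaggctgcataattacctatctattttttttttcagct

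The first base of TGATTGG lay 50 bases before the start in H2-Aa, 61 in H2-Eb1, 92 in H2-DMb2, 45 in H2-Oa and 59 in H2-Ob. In the 250 bases before the start, on either strand (TGATTGG or CCAATCA), the motif was found in 7 of 8 class II pathway genes that had a promoter in the table, of 10 looked for. It occurred in 7.23% of all 32851 promoters. The matches describe the letters alone.

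The cell label was checked against the B cell genes that had no part in the selection. Cd79a was detected in 31 of 32 cells at day 28 and in 271 of 271 at day 0, and Cd79b in 29 of 32 and 270 of 271. Such counts need only 1 UMI, and some cells held little more. Cd79a and Cd79b together ran from 0.701 to 68.7 per 10000 UMIs of a cell at day 28 and from 2.09 to 98.6 at day 0. H2-DMb2, a chain of the class II peptide exchange factor that B cells carry, was detected in 24 of 32 cells at day 28 and in 244 of 271 at day 0. Ebf1, a factor of the B lineage, was found in 27 of 32 cells at day 28 and 262 of 271 cells at day 0. Col1a1 and Pdgfra, which mark fibroblasts, had 0 UMIs in the selected cells of both libraries. Gsn, from a list of 13 fibroblast and stromal genes, had 7 UMIs in 5 of 32 cells at day 28. At day 0 it had 103 UMIs in 67 of 271 cells. S100a4 itself had UMIs in 8 of 32 cells at day 28 and 23 of 271 cells at day 0. Itgam, which encodes CD11b, had 3 UMIs in all at day 28 and 6 at day 0. Vpreb3, which is highest in B cell precursors, was detected in 11 of 32 cells at day 28 and 151 of 271 at day 0, so the cells are called Ms4a1-positive B cells here and not mature throughout.

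Many of the cells at day 28 also carried RNA of another blood lineage or of plasma cells, which arise from B cells. Plasma cells are counted among the 7 lineages used here, so the limit can also remove cells of the B lineage. A limit of 5 UMIs and 0.1% of a cell's UMIs for the markers of any 1 of 7 lineages, set after seeing the data, was passed by 15 of 32 cells at day 28 and by 40 of 271 at day 0. At day 28 the lineages past the limit were granulocyte precursor in 8 cells, plasma cell in 5, dendritic cell in 3, and monocyte, erythroid, basophil, and T or NK cell in 1 each. At day 0 they were plasma cell in 17 cells, granulocyte precursor in 11, monocyte in 8, dendritic cell in 5, erythroid in 4, T or NK cell in 2 and basophil in 0. The median depth of the 8 granulocyte precursor cases at day 28 was 15050 UMIs, against 6664.5 over all 32 selected cells. The plasma cell markers Jchain, Sdc1 and Prdm1 summed to 8344 CPM (counts per 1000000 UMIs) at day 28 and 1258 CPM at day 0, and 57.1% of the day 28 sum came from 1 cell. Leaving out the cells past the limit left 17 cells at day 28 and 231 at day 0. The deepest of the 17 held 38140 UMIs and so weighs most in their sums. In the 17 cells 1 UMI equals 6.85 CPM, against 2.92 CPM over all 32. Values over those are given below as "below the lineage limit". Some RNA of other lineages remained in them and was higher at day 28. Of 6 granulocyte and myeloid precursor genes measured there, 5 were at least 2-fold higher, with a median log2 ratio of 1.97, and of 7 monocyte and macrophage genes 4 were, with a median of 1.21. Their ratios were 3.93 for Elane, 5.29 for Prtn3 and 3.28 for Lyz2, where over all selected cells they were 0.706, 1.37 and 0.388 in the same order.

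The selected cells were deeper at day 28, like the library as a whole. Their UMI totals ran from 4179 to 38140 at day 28 (median 6664.5) and from 3007 to 31891 at day 0 (median 4171), with medians of 1989.5 and 1413 detected genes. Over all deposited barcodes the lowest total was 4175 at day 28 and 3001 at day 0. Cell barcodes present in both libraries numbered 13. Other lymphocytes also held some B cell RNA: of the cells with at least 2 UMIs of Cd3d, Cd3e and Cd3g, 6.08% at day 28 (n = 148, median depth 6861.5 UMIs) and 19.3% at day 0 (n = 1137, median depth 3978 UMIs) had a UMI of Ms4a1.

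**Figure D1:**
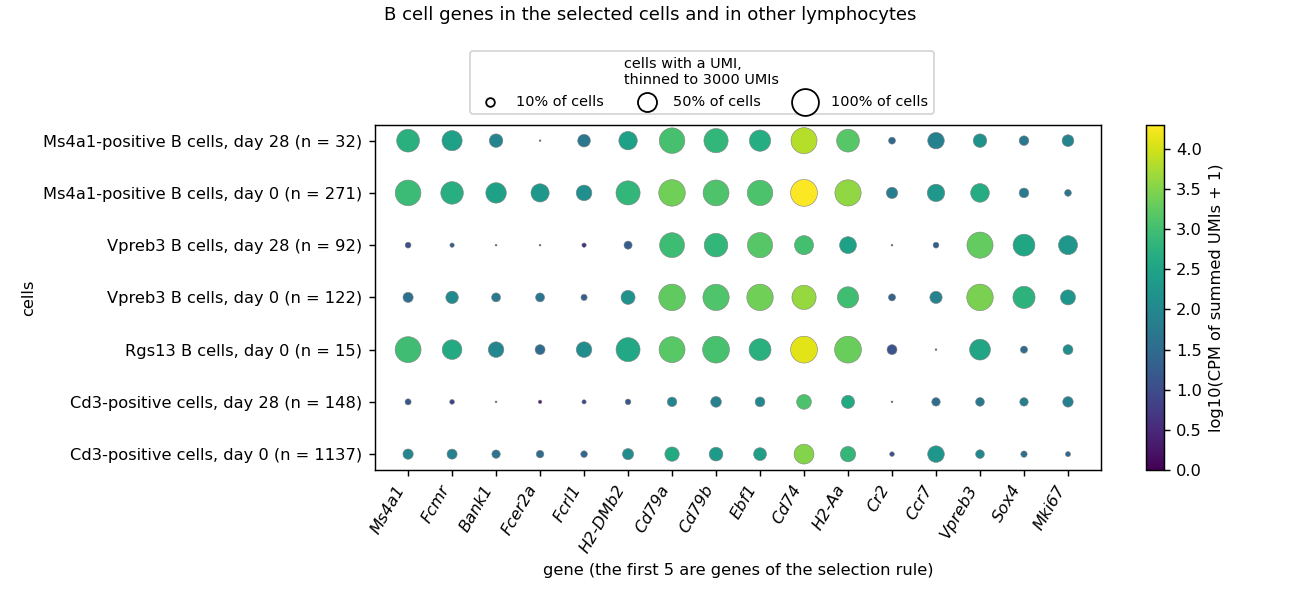
Dots show, for each gene (x axis) and population and library (y axis), the share of cells with a UMI after thinning every cell to 3000 UMIs (dot size) and the level as log10 of CPM of summed UMIs plus 1 (colour). Ms4a1-positive B cells are high for Cd79a, Cd74 and H2-DMb2 in both libraries, and Fcer2a reaches 45.8% of them at day 0 and 0% at day 28.

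Ms4a1-positive B cells took a lower share of the sorted cells at day 28. It was 1.21% at day 28 (exact Clopper-Pearson 95% interval 0.832 to 1.71) and 10.2% at day 0 (9.04 to 11.4), a ratio of 0.119 (0.0801 to 0.173). Counting only barcodes of at least 4175 UMIs, the lowest total at day 28, the share was 1.21% at day 28 and 8.17% at day 0, and the ratio 0.149. Requiring 1 UMI of Ms4a1 in place of 2 gave 1.82% at day 28 and 12.8% at day 0. The share below the lineage limit was 0.645% at day 28 and 8.66% at day 0. These are shares of labelled CD11b- cells, so they depend on every other population in the sort.

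Cells at the edge of the selection looked different in the 2 libraries. At day 28 the 7 cells with exactly 2 Ms4a1 UMIs, just inside, held 281 CPM of Cd79a, and the 16 cells with 1, just outside but otherwise selected, held 292 CPM. At day 0 these values were 1843 CPM in 64 cells and 1439 CPM in 70 cells. Cells with 3 or more Ms4a1 UMIs held 1454 CPM of Cd79a at day 28 (25 cells) and 2543 CPM at day 0 (207 cells). Depth differed as well. At day 28 the median was 15598 UMIs just inside, 13208.5 just outside and 6525 in cells with 3 or more Ms4a1 UMIs. At day 0 these medians were 4268.5, 3786 and 4167 UMIs.

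**Figure D2:**
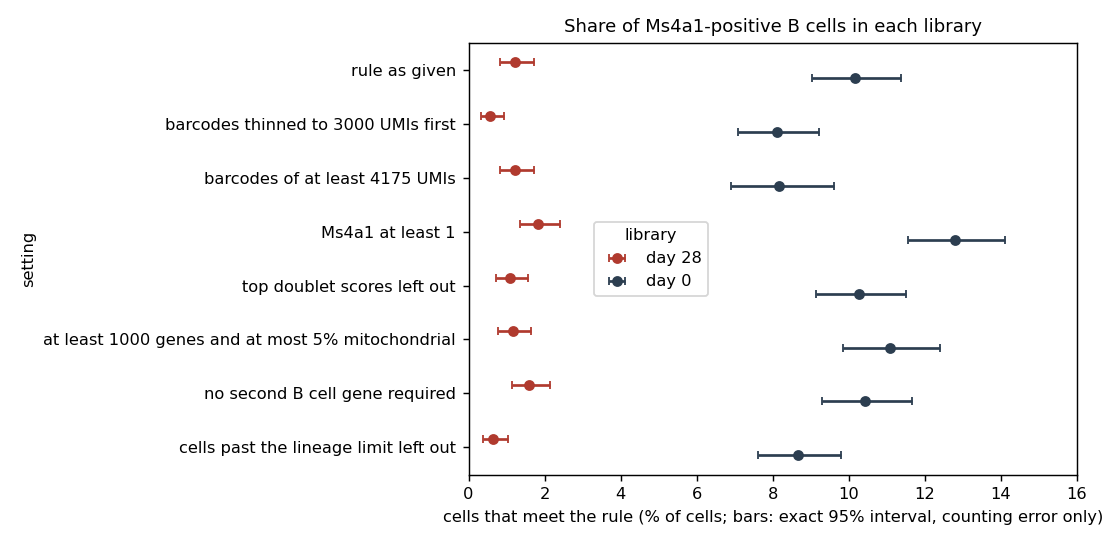
Points give the share of cells (x axis, %) that met the selection in each library under each setting (y axis), and bars the exact 95% interval for counting error. The day 28 share lies between 0.569% and 1.82% and the day 0 share between 8.1% and 12.8%.

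The 5 genes that the selection required were all lower per UMI at day 28, which is given as a description only. Ms4a1, at chr19:11249675-11266241 on the minus strand (GENCODE M21 on GRCm38, as for all gene positions here), had 184 UMIs or 538 CPM at day 28 and 1330 UMIs or 848 CPM at day 0. Fcmr, the receptor for the constant part of IgM, had 286 CPM at day 28 and 494 CPM at day 0. Bank1, an adaptor of antigen receptor signalling, had 84.8 CPM at day 28 and 282 CPM at day 0, and Fcrl1 had 49.7 and 132 CPM.

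Fcer2a, the low-affinity IgE receptor CD23 of follicular B cells, stood furthest apart among these. It lies at chr8:3681737-3694175 on the minus strand and had 10 UMIs in 4 of 32 cells at day 28, against 302 UMIs in 150 of 271 cells at day 0. Its level was 29.2 CPM at day 28 and 192 CPM at day 0, a ratio of 0.152 (0.0721 to 0.283). With each cell thinned to 3000 UMIs, it was detected in 0 of 32 cells at day 28, where a count of 0 allows a thinned share of up to 9.38% (3 of 32 cells), and in 45.8% of 271 cells at day 0. In the Cd3-positive cells, which should lack the gene, the thinned share was 1.35% at day 28 and 7.56% at day 0. Its levels below the lineage limit were 48 CPM at day 28 and 237 CPM at day 0.

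Across all genes, 1169 reached a mean of 100 CPM over the 2 libraries. Of these, 56 (4.79%) were at least 2-fold higher at day 28 and 69 (5.9%) at least 2-fold lower, and the median log2 ratio was 0.03. Below the lineage limit, 1067 genes were measured, 53 of them (4.97%) 2-fold or more higher and 71 (6.65%) lower. Gene lists were read at a mean of 25 CPM, where 218 of 4049 genes (5.38%) were 2-fold or more higher and 344 (8.5%) lower, with a median log2 ratio of -0.03. Those shares below the lineage limit were 7.79% and 11.7% of 3826 genes. The selected cells of the libraries fell mostly into different sub-clusters, which are described further on. The largest held 1 of 32 cells at day 28 and 141 of 271 cells at day 0. One with Vpreb3 and Sox4 among its leading genes held 0 cells at day 28 and 42 cells at day 0. The part of this makeup in the ratios was not tested.

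MHC class II and antigen presentation genes were lower at day 28 as a group. Of 16 measured, 11 were at least 2-fold lower and 0 higher, with a median log2 ratio of -1.25. Below the lineage limit, 8 of 18 were at least 2-fold lower, with a median of -0.99. Cd74, the invariant chain that escorts class II molecules, had 6702 CPM at day 28 and 18638 CPM at day 0, a ratio of 0.36 (0.344 to 0.375). H2-Aa, the alpha chain of H2-A, had 1464 CPM at day 28 and 3884 CPM at day 0, and H2-Ab1, its beta chain, 1362 and 3683 CPM. H2-Eb1, a beta chain of H2-E, had 1280 CPM at day 28 and 2764 CPM at day 0, a ratio of 0.463 (0.419 to 0.511). These 4 are the abundant part of the group, and below the lineage limit their ratios lay between 0.384 for Cd74 and 0.612 for H2-Eb1.

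The genes that load peptide onto class II followed the same direction. H2-DMb2, whose promoter is printed above, had 284 CPM at day 28 and 671 CPM at day 0, a ratio of 0.422, which was 0.676 below the lineage limit. H2-Oa, a chain of the H2-O regulator of peptide loading, had 149 CPM at day 28 and 358 CPM at day 0, a ratio of 0.416 (0.306 to 0.555). H2-Ob, its partner, had 132 CPM at day 28 and 317 CPM at day 0. The proteases that trim the invariant chain and antigens did not stand apart in this way: Ctss had 377 CPM at day 28 and 307 CPM at day 0, and Lgmn 90.6 and 77.1 CPM.

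The regulator and the costimulatory genes were at the low end. Ciita, the class II coactivator, had 2 UMIs in 32 cells at day 28 and 108 UMIs in 271 cells at day 0, a ratio of 0.0849 (0.0102 to 0.314). Cd40, the receptor for T cell help, had 2 UMIs at day 28 and 85 UMIs at day 0, a ratio of 0.108 (0.0129 to 0.402) that was 0.211 below the lineage limit. Cd83, which stabilises class II at the surface, had 76 CPM at day 28 and 229 CPM at day 0, a ratio of 0.332.

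Lower class II levels at day 28 were also measured outside these cells. The ratio of day 28 over day 0 for Cd74 was 0.36 in Ms4a1-positive B cells, 0.245 in B cells marked by Vpreb3 (92 cells at day 28 and 122 at day 0), 0.374 in Cd3-positive cells and 0.2 over all other cells. For Ciita the 4 ratios were 0.0849, 0.0803, 0.178 and 0.149 in the same order. They were 0.422, 0.112, 0.114 and 0.116 for H2-DMb2 and 0.416, 0.193, 0.219 and 0.2 for H2-Oa. Cd83 had 0.332, 0.109, 0.604 and 0.322. Cd74 was 1195 CPM at day 28 and 3192 CPM at day 0 in Cd3-positive cells, and UMIs of it were found in 49.3% and 63.6% of them. The part of free RNA in these levels was not tested.

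Counted per cell, the summed UMIs of Cd74, H2-Aa, H2-Ab1 and H2-Eb1 per 10000 UMIs had a median of 113 at day 28 (range 0 to 339) and 362 at day 0 (range 7.98 to 755). The upper quartile at day 28 was 204 and the lower quartile at day 0 was 227, so the middle parts of the distributions did not overlap while the full ranges did. Cd79a and Cd79b together had a median of 25.8 per 10000 UMIs at day 28 and 45.6 at day 0.

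**Figure D3:**
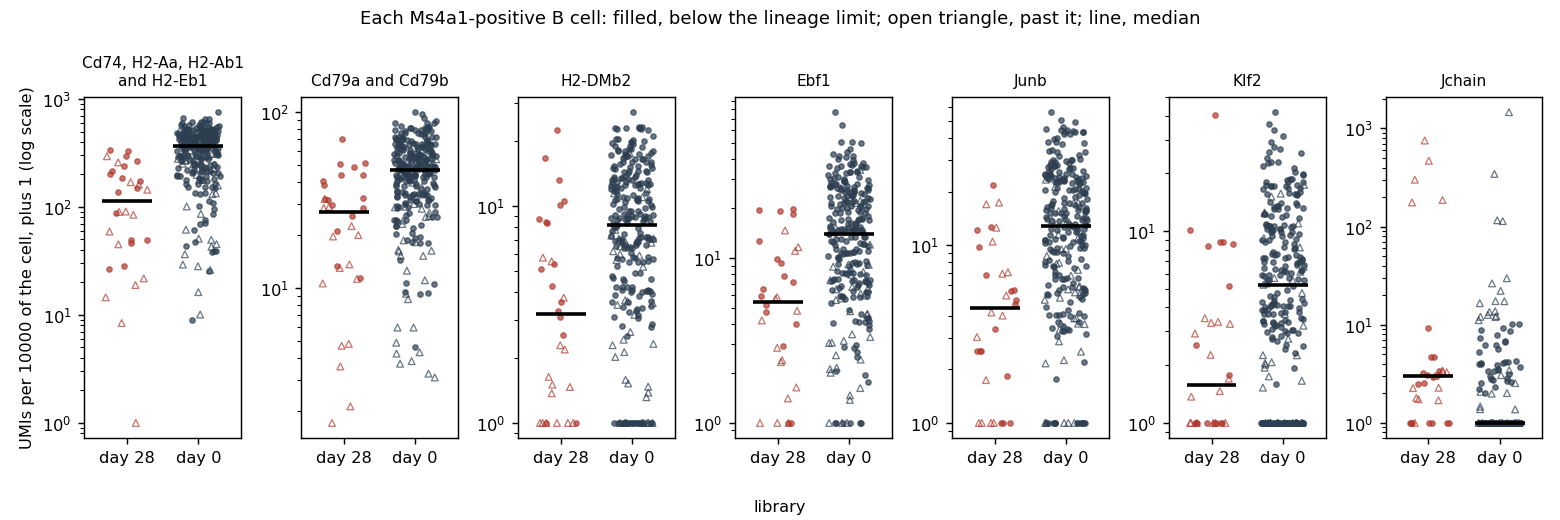
Each symbol is 1 Ms4a1-positive B cell, by library (x axis), with UMIs per 10000 of the cell's UMIs plus 1 on a log y axis. Triangles are cells past the lineage limit, plasma cell markers included, and lines are medians over all cells. The class II sum has a median of 113 at day 28 and 362 at day 0, and Jchain has a median of 1.98 at day 28 and 0 at day 0 with a few cells far above it in both.

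Antigen receptor genes were lower by smaller steps. Of 19 genes of the receptor complex and its coreceptors, 6 were at least 2-fold lower and 0 higher, with a median log2 ratio of -0.77. Below the lineage limit, 2 of 19 were at least 2-fold lower and the median was -0.45. This list holds Ms4a1 and Bank1, which the selection used, and leaving them out gave 5 of 17 lower over all cells and 1 of 17 below the limit. Cd79a, the signalling chain, had 1076 CPM at day 28 and 2369 CPM at day 0, a ratio of 0.454 (0.407 to 0.506), which was 0.609 below the lineage limit. Cd79a was also lower outside these cells, with a ratio of 0.5 in Vpreb3 B cells, 0.217 in Cd3-positive cells and 0.226 over all other cells. Cd79b had 669 CPM at day 28 and 1264 CPM at day 0. Cd81, a tetraspanin of the cell surface, had 266 CPM at day 28 and 213 CPM at day 0. Plcg2, the phospholipase that carries the signal to calcium, had 29.2 CPM at day 28 and 71.4 CPM at day 0. Immunoglobulin constant region genes were not analysed here.

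Inhibitory receptors and phosphatases showed the same direction. Of 14 measured, 7 were at least 2-fold lower and 0 higher, with a median log2 ratio of -0.93, and below the lineage limit 6 of 14 were, with a median of -0.67. Without Fcmr and Fcrl1, which the selection used, the counts were 6 of 12 over all cells and 5 of 12 below the limit. Cd22, a sialic acid receptor that damps the antigen receptor, had 40.9 CPM at day 28 and 106 CPM at day 0. Its ratio was 0.384, beside 0.178 in Vpreb3 B cells, 0.0805 in Cd3-positive cells and 0.136 over all other cells. Cd72 had 102 CPM at day 28 and 279 CPM at day 0. Fcgr2b, the inhibitory receptor for IgG, had 4 UMIs at day 28 and 90 UMIs at day 0, a ratio of 0.204 (0.0544 to 0.54) that was 0.335 (0.0675 to 1.02) below the lineage limit. The ratio of Fcgr2b was 0.997 in Vpreb3 B cells, 1.94 in Cd3-positive cells and 1.1 over all other cells.

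Genes of recirculating follicular B cells were lower at day 28. Of 8 measured, 6 were at least 2-fold lower and 0 higher, with a median log2 ratio of -1.34, or 5 of 10 and -1.14 below the lineage limit. This list holds Fcer2a and Fcmr, which the selection used, and leaving them out gave 5 of 6 lower over all cells and 4 of 8 below the limit. Ccr7, the receptor that guides lymphocytes to lymph node T zones, had 73.1 CPM at day 28 and 187 CPM at day 0, a ratio of 0.39 (0.248 to 0.587). Cxcr5, the follicle homing receptor, had 1 UMI at day 28 and 73 UMIs at day 0, a ratio of 0.0628 (0.00157 to 0.361) that was 0.121 below the lineage limit. Gpr183, which positions B cells within follicles and stands in the wider homing list, had 3 UMIs at day 28 and 148 UMIs at day 0, a ratio of 0.093 that was 0.165 below the limit.

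Several of the homing genes were also lower in other cells. The ratio of Ccr7 was 0.251 in Vpreb3 B cells, 0.181 in Cd3-positive cells and 0.0829 over all other cells. In the same order the ratios were 0.134 (0.00291 to 1.1), 0.244 and 0.0966 for Cxcr5 and 0.292, 0.279 and 0.149 for Gpr183. Klf2, a factor that drives S1pr1 in lymphocytes, had 193 CPM at day 28 and 502 CPM at day 0 in Ms4a1-positive B cells, a ratio of 0.384. Its ratio was 0.398 in Vpreb3 B cells and 0.233 in Cd3-positive cells. Over the whole homing list of 20 measured genes, 5 were at least 2-fold lower and 1 higher. The 1 higher was Cd44, the hyaluronan receptor, with 102 CPM at day 28 and 49.1 CPM at day 0.

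Transcription factors of the B lineage were mostly lower, with 1 far higher. Of 26 measured, 7 were at least 2-fold lower and 1 higher, with a median log2 ratio of -0.70, which was -0.80 below the lineage limit. Bach2, a repressor of plasma cell differentiation, had 5 UMIs at day 28 and 141 UMIs at day 0, a ratio of 0.163 (0.052 to 0.389). Its ratio was 1.31 (0.965 to 1.78) in Vpreb3 B cells, 0.536 (0.347 to 0.8) in Cd3-positive cells and 0.447 over all other cells. Ets1 had 58.5 CPM at day 28 and 217 CPM at day 0, a ratio of 0.269. Ebf1, which specifies the B lineage, had 453 and 1199 CPM, a ratio of 0.378. Both were also lower in other cells. In Vpreb3 B cells, Cd3-positive cells and all other cells the ratios were 0.749 (0.549 to 1.02), 0.464 and 0.233 for Ets1. For Ebf1 they were 0.622, 0.405 and 0.403 in the same order. Zbtb32, a zinc finger repressor that limits antibody recall responses, was the 1 higher, with 23 UMIs in 9 of 32 cells at day 28 and 11 UMIs in 8 of 271 cells at day 0. Its ratio was 9.59 (4.49 to 21.8), and 12.4 below the lineage limit. Of the Zbtb32 UMIs at day 28, 39.1% were in 1 cell. That cell is among those below the lineage limit, where 18 UMIs remained, so its share was larger there.

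Among survival and TNF receptor family genes, 4 of 14 were at least 2-fold lower and 0 higher. Tnfrsf13c, the BAFF receptor that mature B cells need to survive, had 84.8 CPM at day 28 and 273 CPM at day 0, a ratio of 0.311 (0.206 to 0.453). A single cell held 44.8% of its UMIs at day 28. Of 6 Toll-like receptor and sensing genes, 1 was at least 2-fold lower, and this was Cd180, a regulator of lipopolysaccharide responses in B cells, with 58.5 CPM at day 28 and 150 CPM at day 0. Its ratio was 0.389, and 0.509 (0.266 to 0.891) below the lineage limit. There, 0 of 7 genes of the list were at least 2-fold lower and 1 was higher. The ratio of Cd180 was 0.371 in Vpreb3 B cells, 0.509 in Cd3-positive cells and 0.389 over all other cells.

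Among the genes that were ranked at 100 CPM, which leaves out unnamed and ribosomal genes, the lowest ratios were of Fcer2a, Sipa1, Hvcn1 and Eno1. Hvcn1, the voltage-gated proton channel of lymphocytes and phagocytes, had 49.7 CPM at day 28 and 280 CPM at day 0, a ratio of 0.177 (0.102 to 0.287). Sipa1, a brake on the small GTPase Rap1, had 29.2 CPM at day 28 and 173 CPM at day 0, a ratio of 0.169. Their ratios below the lineage limit were 0.103 for Hvcn1 and 0.102 for Sipa1. In Vpreb3 B cells the same genes had ratios of 0.241 for Hvcn1 and 0.213 for Sipa1, and in Cd3-positive cells 0.428 and 0.468. Gimap6, a lymphocyte GTPase, had 61.4 CPM at day 28 and 241 CPM at day 0.

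**Figure D4:**
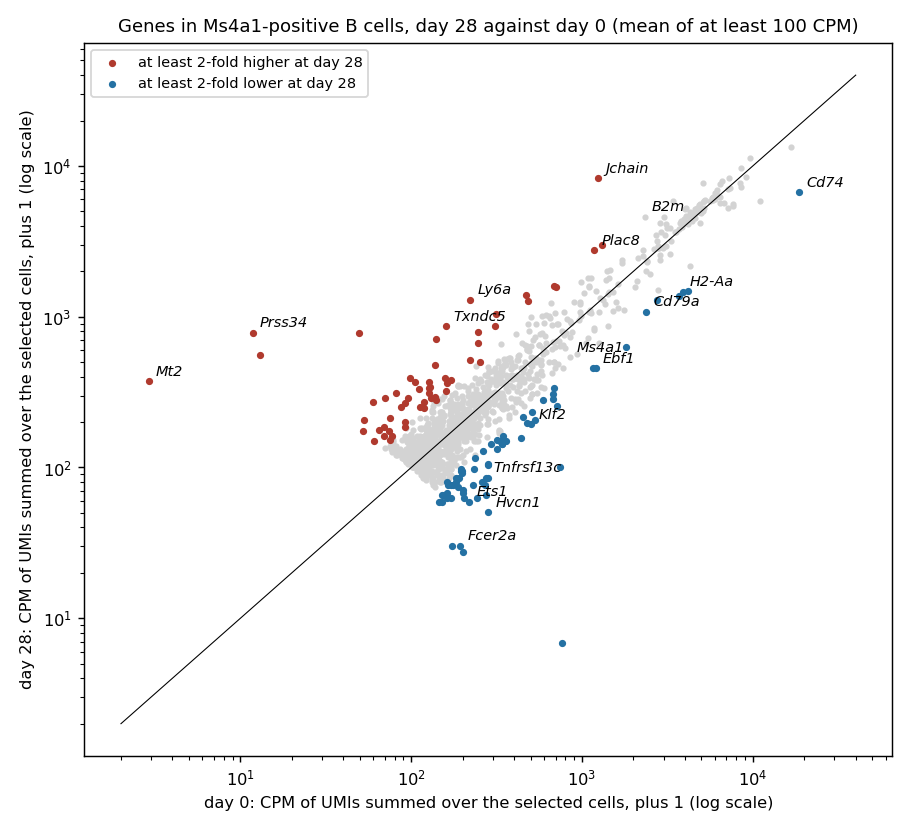
Each point is a gene at a mean of at least 100 CPM, with CPM of summed UMIs plus 1 at day 0 on the x axis and at day 28 on the y axis, both log; the line marks equal levels. Cd74, H2-Aa and Cd79a lie under the line, while Jchain, Plac8, Prss34 and Mt2 lie above it.

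The highest ratios at day 28 came largely from single cells. Prss34, a basophil protease, had 268 UMIs at day 28, 95.5% of them in 1 cell, and 17 UMIs at day 0. Mcpt8, another basophil protease, had 92.7% of its 191 UMIs at day 28 in 1 cell. Mt2 and Mt1, metallothioneins that bind zinc and other metals, had 89% and 80.5% of their UMIs at day 28 in 1 cell. Ly6a (Sca-1) had 1298 CPM at day 28 and 220 CPM at day 0. Of the day 28 UMIs, 62.4% were in 1 cell, and its ratio of 5.89 was 1.48 below the lineage limit.

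Plasma cell genes were higher at day 28 over all selected cells. Of 10 measured, 8 were at least 2-fold higher and 0 lower, with a median log2 ratio of 1.66. Jchain, which links the units of secreted IgM and IgA, had 8277 CPM at day 28 and 1246 CPM at day 0, a ratio of 6.64 that was 2.48 below the lineage limit. At day 28 a single cell held 57.2% of the Jchain UMIs, while the median cell held 1.98 per 10000. Xbp1, the factor that expands the secretory machinery, had 392 CPM at day 28 and 96.9 CPM at day 0, a ratio of 4.04 that was 0.661 below the lineage limit. Txndc5, a folding enzyme, had a ratio of 5.43 that was 0.844 below the limit. Because Jchain, Sdc1 and Prdm1 define the plasma cell limit, their loss follows from leaving those cells out. Of the 6 plasma cell genes then measured, 2 were at least 2-fold higher and the median was 0.29.

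Genes of innate-like B cells had medians above 0 in either set of cells. Of 8 B-1 cell genes, 2 were at least 2-fold higher and 0 lower, with a median log2 ratio of 0.82, and below the lineage limit 5 of 6 were, with a median of 2.02. In that smaller set the granulocyte and monocyte lists were higher too, as given above, and their part in these values was not tested. Of 8 marginal zone genes, 5 were at least 2-fold higher and 2 lower, with a median of 1.19 that was 0.44 below the lineage limit. Plac8, which is high in B-1 and marginal zone cells and in myeloid cells, had UMIs in 32 of 32 cells at day 28 and 202 of 271 at day 0. Its level was 2768 CPM at day 28 and 1180 CPM at day 0, a ratio of 2.35 (2.17 to 2.54), and 4.39 below the lineage limit. The ratio of Plac8 was 1.46 in Vpreb3 B cells, 3.38 in Cd3-positive cells and 1.66 over all other cells.

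Other genes of this kind had fewer counts. Cd36, a scavenger receptor of marginal zone B cells, had 67.2 CPM at day 28 and 17.2 CPM at day 0, a ratio of 3.91 (2.14 to 7.08) that was 6.56 below the lineage limit. Of the Cd36 UMIs at day 28, 39.1% were in 1 cell. That cell is also below the limit, where 19 UMIs remained, so its share was larger there. Cd9, a tetraspanin of marginal zone, B-1 and plasma cells, had 81.8 CPM at day 28 and 28.7 CPM at day 0, a ratio of 2.85 (1.71 to 4.67). S100a6, a calcium-binding protein, had 321 CPM at day 28 and 159 CPM at day 0, a ratio of 2.03 that was 4.48 below the limit. Bhlhe41, also of the B-1 list, had a ratio of 1.13 (0.58 to 2.05), and 1.9 (0.885 to 3.74) below the limit. Anxa2 of that list had a ratio of 0.768 (0.514 to 1.11), and 3.63 (2.05 to 6.23) below the limit. Other marginal zone genes were lower over all selected cells. Cr2 (CD21), high in marginal zone cells, had 9 UMIs at day 28 and 99 UMIs at day 0, a ratio of 0.417 that was 0.675 (0.283 to 1.39) below the limit. Dtx1, a Notch target of these cells, had 4 UMIs at day 28 and 66 UMIs at day 0, a ratio of 0.278 that was 0.422 (0.0844 to 1.3) below the limit. Both were also lower outside the selected cells. In Vpreb3 B cells, Cd3-positive cells and all other cells the ratios were 0.0574, 0.0571 and 0.0243 for Cr2. For Dtx1 they were 0.344 (0.0574 to 1.51), 0.0551 and 0.0206 in the same order. Cd5, which marks B-1a cells, had 1 UMI at day 28 and 3 at day 0, too few to give a direction.

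Cell cycle genes depended on which cells were counted. Over all selected cells 1 of 24 was at least 2-fold higher and 1 lower, with a median log2 ratio of 0.11, and below the lineage limit 15 of 24 were at least 2-fold higher and 0 lower, with a median of 1.13. Mki67, a marker of dividing cells, had UMIs in 12 of 32 cells at day 28 and 31 of 271 at day 0. After thinning to 3000 UMIs it was found in 18.8% of cells at day 28 and 5.9% at day 0. Its level was 84.8 CPM at day 28 and 47.2 CPM at day 0, a ratio of 1.8 (1.13 to 2.8), and in the 17 and 231 cells below the lineage limit it was 117 CPM at day 28 and 31.6 CPM at day 0. In Cd3-positive cells Mki67 had a ratio of 2.77 and in Vpreb3 B cells 1.06.

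MHC class I and immediate early genes differed less over all selected cells. Of 14 class I presentation genes, 1 was at least 2-fold higher and 1 lower. B2m, the light chain of class I, had 4609 CPM at day 28 and 2329 CPM at day 0, a ratio of 1.98 that was 1 below the lineage limit. Of 18 immediate early genes, 1 was at least 2-fold higher and 4 lower, and below the lineage limit 1 of 19 was higher and 8 lower, with a median log2 ratio of -0.84. Junb, a subunit of the factor AP-1, had 456 CPM at day 28 and 1164 CPM at day 0, a ratio of 0.392, and its ratio was 0.277 in Cd3-positive cells. Jun had a ratio of 2.47 over all selected cells and 0.434 below the lineage limit.

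**Figure D5:**
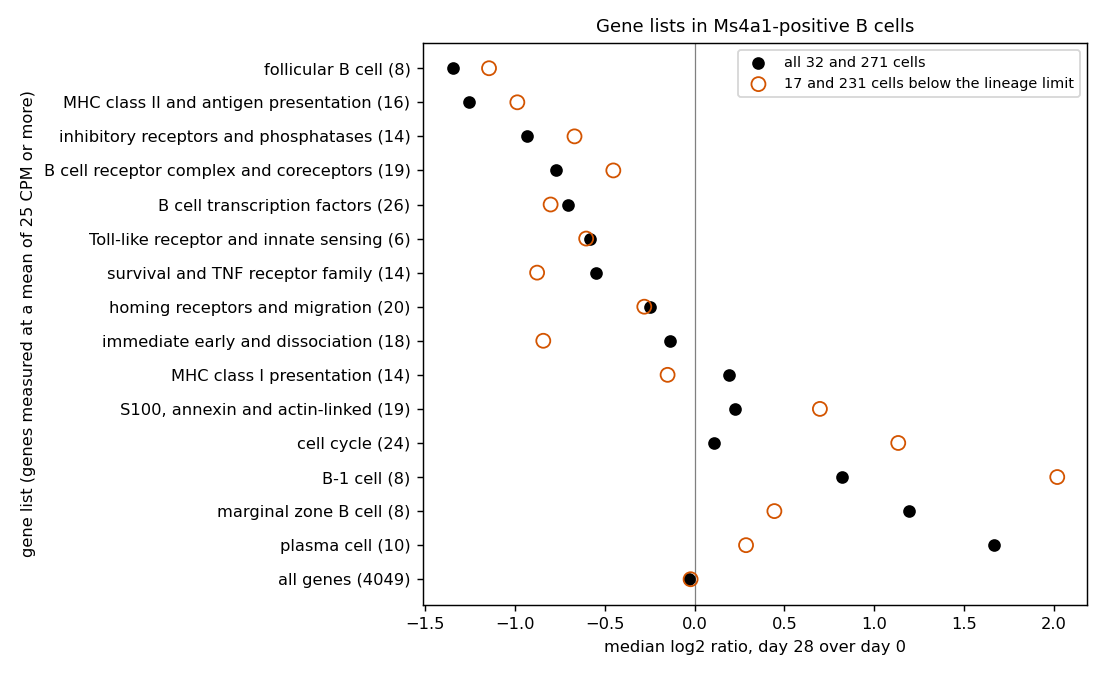
Points give, for each gene list (y axis, with the number of genes measured), the median log2 ratio of day 28 over day 0 (x axis), filled over all 32 and 271 cells and open over the 17 and 231 cells below the lineage limit. Follicular and class II lists lie at -1.34 and -1.25 with all cells and at -1.14 and -0.99 in the open set, while the plasma cell list is at 1.66 and 0.29.

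The cells also varied within a library. At day 0, after thinning to 3000 UMIs, 124 cells had a UMI of Fcer2a and 147 had none. Cells with Fcer2a held 193.5 CPM of Cd55, the complement decay factor, against 88.4 CPM in cells without, a ratio of 2.19 (1.46 to 3.32). Ccr7 was 320 CPM in cells with Fcer2a and 179 CPM in cells without, and Gpr183 185 and 83.9 CPM. Apoe, a lipid carrier, was 274 CPM in cells with Fcer2a and 717 CPM in cells without, a ratio of 0.383 (0.303 to 0.48). Bhlhe41, a factor of B-1a cells, was 10.8 CPM in cells with Fcer2a and 59 CPM in cells without. Lyz2, a myeloid lysozyme, was 67.2 CPM in cells with Fcer2a and 420 CPM in cells without, so myeloid RNA was also higher in the group without Fcer2a.

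Clustering the 303 cells gave 6 groups, which are described by the genes that lead them over the other selected cells and carry no test, since those genes formed the groups. The largest held 142 cells (1 at day 28 and 141 at day 0) and was led by Gpr183, Ccl5, Cd55, Fcer2a, Satb1 and Trim7, with 353 CPM of Fcer2a, 26634 CPM of Cd74 and a median depth of 3694 UMIs. A single cell held 54.8% of its Ccl5 UMIs. A group of 51 cells (10 at day 28 and 41 at day 0) was led by Cenpe, Rrm2, Car2, Cenpf, Nusap1 and Basp1, most of which serve DNA synthesis or mitosis, and held 165 CPM of Mki67. A group of 42 cells (0 at day 28 and 42 at day 0) was led by Tifa, Atp1b1, Sox4, Vpreb3, Akap12 and Fam53b, with 2134 CPM of Vpreb3 and 1273 CPM of Ms4a1.

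The remaining groups were smaller. One of 30 cells (8 at day 28 and 22 at day 0) was led by Apoe, Bhlhe41, Zbtb32, Ahr, Zbtb20 and Cd9, with 3229 CPM of Apoe and 5.3 CPM of Fcer2a beside 827 CPM of Fcmr. One of 29 cells (8 at day 28 and 21 at day 0) was led by Prtn3, Lyz2, Elane, Prss34, Alox5ap and Hp, genes of granulocytes, monocytes and basophils, and had a median depth of 12939 UMIs with 440 CPM of Cd79a. One of 9 cells (5 at day 28 and 4 at day 0) was led by Jchain, Mt2, Slpi, Derl3, Prg2 and Mt1, with 39813 CPM of Jchain. Some of these leading genes came largely from 1 cell. In the group of 29 cells the top cell held 98.5% of the Prss34 UMIs. In the group of 9 cells it held 86.9% for Mt2, 83.9% for Slpi, 82.7% for Mt1 and 50% for Prg2, while Jchain had UMIs in all 9.

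Set beside the Vpreb3 B cells of the day 0 library, Ms4a1-positive B cells were rich in class II and poor in cell cycle transcripts. This is a description, because the selection used the same cells' genes. Against Vpreb3 B cells (Vpreb3 at least 2 and Ms4a1 at most 1 UMI), 16 of 18 class II genes were at least 2-fold higher and 0 lower, where 4.75% of 4380 genes were higher and 14.9% lower, with a median log2 ratio of 1.93. H2-DMb2 had 671 CPM in Ms4a1-positive B cells and 150 CPM in Vpreb3 B cells. All 24 cell cycle genes were at least 2-fold lower, with a median of -2.26, as were all 7 measured genes of pro-B and pre-B cells. The pro-B and pre-B list holds Vpreb3, which defines the Vpreb3 B cells, so its place follows from the choice of cells. That count was not repeated without Vpreb3.

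Against the 15 Rgs13 B cells of day 0, all 8 measured germinal centre genes were at least 2-fold lower in Ms4a1-positive B cells, where 14.8% of 4104 genes were lower and 10.7% higher. Rgs13 B cells were chosen by their Rgs13 UMIs and the selected cells could hold none, so a lower Rgs13 was fixed in advance. The germinal centre count was not repeated without it. Of 9 follicular genes, 6 were at least 2-fold higher, and of 16 immediate early genes 14 were. Markers of other cell types were also at least 2-fold higher, in 7 of 7 monocyte, 6 of 7 granulocyte precursor and 5 of 5 erythroid genes, and their part in the comparison was not tested. Ccr7 had 187 CPM in Ms4a1-positive B cells and 6.17 CPM in Rgs13 B cells. Class II genes stood less far apart here. Of 17 measured, 4 were at least 2-fold higher and 0 lower, with a median log2 ratio of 0.495. Cd74 was 18638 CPM in Ms4a1-positive B cells and 12930 CPM in Rgs13 B cells. Of 23 cell cycle genes, 18 were at least 2-fold lower and 0 higher. The day 28 library held 1 Rgs13 B cell, so the same comparison was not made there.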

How the data were processed

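Droplet single-cell RNA was measured in 1 library per group. Cell Ranger 2.1.1, STAR (version not given in the sources used here) and build mm10 are named in the submitters' processing notes. The authors deposited unnormalized UMI counts, all whole numbers, for each gene in each barcode. The files hold 2653 barcodes and 38785525 UMIs at day 28 and 2668 barcodes and 19574562 UMIs at day 0. Barcodes failing the filter numbered 17 at day 28 and 2 at day 0.

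Counts of the selected cells were summed per library and expressed as CPM. Each ratio divides day 28 by day 0 and has an exact conditional binomial 95% interval, and shares carry Clopper-Pearson intervals; both cover counting error alone. A gene at 0 UMIs was set to 3 UMIs and its ratio read as a bound. With 1 library per group no p-value was computed. Sub-clusters used scanpy 1.11.5 and leidenalg 0.10.2 (1000 variable genes, 15 components, 15 neighbours, resolution 0.5). Doublet scores came from Scrublet in scanpy, and the top-scoring cells (56 at day 28, 57 at day 0) were left out as an alternative only. TMM factors came from edgeR 4.0.16. The ratio and thinning steps were tested on simulated data.

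The selection, the comparison cells and the 31 gene lists were chosen with earlier results of these data known. Named genes were a fixed set of B cell genes, the 12 highest and 12 lowest ratios at a mean of 100 CPM, the 2 highest and 2 lowest of each list at 25 CPM, the genes highest in the selected cells over the other B cells, and the 6 leading genes of each sub-cluster. Ribosomal, mitochondrial, haemoglobin, sex-linked and unnamed genes were left out of the ranked picks. Ebf1, H2-Ob, Cd5 and Gm10709 fall outside this rule and were chosen after their values were seen. Of 27998 genes, 27722 were matched to GENCODE M21. Cell barcodes alone carry no animal of origin. Values of 2 genes of the fixed set are not reported here.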

Additional observations from a re-analysis of the deposited data

How the results depend on the processing

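No paired analysis was possible because each group has 1 library and the labels give no replicate numbers; for the same reason no replicate could be left out. Leaving out every cell with 3 or more UMIs in sum over markers of granulocyte precursors, erythroid cells, plasma cells and T cells gave no value, since 0 of 32 cells were left at day 28 (68 of 271 at day 0). The share ratio of 0.119 was 0.0702 when barcodes were thinned to 3000 UMIs before selection and 0.0744 below the lineage limit. The 56 genes at least 2-fold higher became 99 with the selected cells thinned, 118 with all barcodes thinned first and 218 at 25 CPM, and the 69 lower became 344 at 25 CPM. The cause was not tested.

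Median log2 ratios of lists moved as follows. Survival genes had 0.062 at 100 CPM. Below the lineage limit the medians were 0.44 for marginal zone, 2.02 for B-1, 0.29 for plasma cell, -0.84 for immediate early and 1.13 for cell cycle genes. B-1 genes had 1.43 with cells thinned, 1.47 as a mean over cells and 1.46 in cells of at most 10000 UMIs; cell cycle genes had 1.02, 1.09 and 1.5 in the same order. Lists of other cell types moved too: below the lineage limit the medians were -0.16 for erythroid (1.58 over all cells), -0.11 for dendritic cell (1.11), 1.97 for granulocyte (0.55), 1.21 for monocyte (0.42) and -1.04 for pro-B and pre-B genes (0.12).

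Of 156 named genes under 7 settings, 746 values kept within 1.5-fold, 324 moved further and 21 turned direction. The turned log2 ratios below the lineage limit were Mt1 -1.24, Txndc5 -0.24, Xbp1 -0.60, Bst2 -0.11, Jun -1.20, Lyz2 1.71 and Hba-a2 -0.32. With all barcodes thinned first they were Ccl4 -0.98, Bcl2a1d 0.041, Jun -0.35, Lyz2 0.093, Cebpb 0.13 and S100a9 -0.61. In cells of at most 10000 UMIs they were S100a4 -1.55, Ccl4 -2.32, Myb -0.44, Jun -0.26 and Nkg7 -1.497. With the selected cells thinned they were Myb -0.38 and S100a9 -0.14, and without the top doublet scores Hba-a2 was -2.08. The 32 cells at day 28 held 342152 UMIs in all, which limits every gene under about 25 CPM there.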

Other observations

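Among genes at a mean of 100 CPM, the lowest ratio in Ms4a1-positive B cells was that of Gm10709, a predicted gene left out of the ranked picks because it has no name. It had 2 UMIs at day 28 and 1200 UMIs at day 0, a ratio of 0.00764 (0.000925 to 0.0277), and was detected in 2 of 32 cells at day 28 and 257 of 271 at day 0. Its ratio was 0.0157 in Vpreb3 B cells, 0.0104 in Cd3-positive cells and 0.0139 over all other cells, so it was lower at day 28 in each of these populations.

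Btg1, an antiproliferative gene of resting lymphocytes, also fell outside the naming rule. It had 628 CPM at day 28 and 1802 CPM at day 0 in Ms4a1-positive B cells, a ratio of 0.349 (0.302 to 0.401), beside 0.429 in Vpreb3 B cells and 0.498 in Cd3-positive cells. Trim7, a leading gene of the largest sub-cluster, had 0 UMIs in 32 cells at day 28 and 113 UMIs in 91 of 271 cells at day 0, which makes it at least 8.21-fold lower with a floor of 3 UMIs over the 32 cells. Traf1, a signalling adaptor of TNF receptors, had 58.5 CPM at day 28 and 37.6 CPM at day 0 in Ms4a1-positive B cells, a ratio of 1.55 (0.887 to 2.62), beside 0.134 in Vpreb3 B cells and 0.578 in Cd3-positive cells. Traf1 below the lineage limit had 117 CPM at day 28 and 41.5 CPM at day 0.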
